A study of Mus musculus with 18 samples.

Results

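AP-1 is a family of transcription factors that bind DNA as dimers of basic leucine zipper (bZIP) proteins of the Fos, Jun, Batf, Atf and Maf groups. Fos proteins must pair with a Jun protein, and Jun proteins can also pair with each other. The dimer reads the TRE, searched here as TGANTCA with any middle base, or the related CRE (TGACGTCA). In macrophages, Toll-like receptor signals act through MAP kinases to raise AP-1 activity within minutes to hours, and several AP-1 genes are themselves early targets of that signal. The chromatin around 10 of these genes is described here: Fos, Fosb, Fosl1 (Fra-1), Fosl2 (Fra-2), Jun, Junb, Jund, Batf, Atf3 and Maff.

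Accessible chromatin was mapped by ATAC-seq, in which the Tn5 transposase cuts open DNA, so that more reads in a peak mean a more accessible site. Accessibility is not transcript level, and no RNA values enter the text. The cells were bone marrow-derived macrophages (BMDMs) of male, 12-week-old C57BL/6J mice, and every group carried the Il10-/- deletion, so none could make its own IL-10. Bone marrow came from 3 mice, and there were 6 conditions with 3 libraries each, 18 in all: unstimulated, (+)-JQ1 at 500 nM, IL-10 at 10 ng/mL, LPS at 50 ng/mL, LPS + (+)-JQ1 and LPS + IL-10. (+)-JQ1 is an inhibitor of the BET bromodomain proteins, which read acetylated histones, IL-10 is an anti-inflammatory cytokine, and LPS is the bacterial ligand of TLR4. (+)-JQ1, IL-10 or vehicle was given for 12 h before LPS was added for 4 h, and unstimulated cells stayed in culture for the full 16 h. The study's methods call the unstimulated control untreated and name no vehicle for it, and an effect of vehicle was not tested.

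Members were the peaks of the union peak table that overlapped the body of an AP-1 gene or the 25 kb on either side of it, with genes from GENCODE M1 on mm9. The rule gave 213 of 194284 peaks, 58 classed as promoter and 155 as distal by the submitters' annotation. All 213 passed the filter on low counts, and 124 had a mean of at least 50 normalised counts over the libraries. A peak is named by its gene and by the distance of its centre from the transcript start, with + for downstream. The nearest protein-coding start belonged to an AP-1 gene for 120 of the peaks and to a neighbour for the other 93, and no peak was shared by 2 of the genes. The number of peaks ran from 7 at Jun, a single-exon gene, to 32 at Fosl2. Values are reads per peak scaled to a common library size (normalised counts). A differentially accessible region (DAR) has an FDR under 0.05 and an absolute log2 fold-change above 0.5.

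Total counts in peaks were 12020526 to 25908198 per library. The TMM scaling factors were 1.04 to 1.24 in the unstimulated libraries and 0.896 to 1.05 in the others, and the first unstimulated library had the lowest depth and the highest factor. Promoter peaks took 40.8% of the counts in that library, and 42.4% to 51.1% in the other 17. Among the 58 promoter peaks at AP-1 genes, the first unstimulated library was the lowest of its group in 36 and the third the highest in 32. Without the first unstimulated library 36 of the AP-1 gene peaks rose with LPS in place of 47, and 39 with promoter and distal peaks scaled separately. The most open peaks over the starts of macrophage markers held 187.1 to 506.1 normalised counts per kb at Emr1 and 470.7 to 1356 at Mertk, against 11.67 to 30.78 at the B cell gene Cd79a. Itgam, also a macrophage marker, held only 55.54 to 112.2 at the most open of its 3 peaks, a range that overlapped those of the fibroblast genes Col1a1 (74.94 to 122.5) and Pdgfra (70.38 to 101.1) and of the dendritic cell gene Flt3 (51.14 to 82.39). The start of Zbtb46, a dendritic cell marker, held 325.7 to 726.2 counts per kb and that of the neutrophil marker S100a8 held 144.5 to 420.5, and what these 2 open starts owe to other cells was not tested.

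Short stretches of the peaks on which the results turn are printed first, so that the sites can be seen. They were read from the plus strand of the mm9 reference genome, and capitals mark every match, on either strand, to the motifs searched in the middle 500 bases of each peak: the TRE, the CRE, an ISRE-like site (GAAANNGAA), a PU.1-like site (GAGGAAGT), a STAT site (TTCCNGGAA), a kappaB site and the CArG box, the core of the serum response element. The Fos start peak (chr12:86814501-86814665) held the CArG box known from this promoter and a kappaB match, and the Maff start peak (chr15:79177891-79178015) held the only CRE among the 213 peaks and a STAT match.
Fos -0.1 kb: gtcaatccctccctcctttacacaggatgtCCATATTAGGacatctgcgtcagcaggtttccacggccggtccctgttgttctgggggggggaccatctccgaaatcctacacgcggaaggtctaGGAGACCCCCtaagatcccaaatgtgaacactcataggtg
Maff +0.0 kb: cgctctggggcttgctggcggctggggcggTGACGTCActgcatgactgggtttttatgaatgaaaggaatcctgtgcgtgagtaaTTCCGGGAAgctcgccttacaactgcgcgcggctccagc

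The peaks that follow lie away from the starts and are those whose accessibility differed with LPS, (+)-JQ1 or IL-10. TREs are in capitals at Fosb (chr7:19912466-19912733), Fosl2 (chr5:32466725-32466791), Jun (chr4:94714249-94714315), Junb (chr8:87509526-87509622) and upstream of Atf3 (chr1:193017626-193017869), where an ISRE-like site lies beside the first of a pair of TREs. The other Fosl2 stretch (chr5:32462768-32462836) shows an ISRE-like site, and the stretch downstream of Atf3 (chr1:192984538-192984607) a CArG box. The TRE match at Jun has T as its middle base (TGATTCA), as has the second match upstream of Atf3. The first match at Fosb has A (TGAATCA).
Fosb -17.2 kb: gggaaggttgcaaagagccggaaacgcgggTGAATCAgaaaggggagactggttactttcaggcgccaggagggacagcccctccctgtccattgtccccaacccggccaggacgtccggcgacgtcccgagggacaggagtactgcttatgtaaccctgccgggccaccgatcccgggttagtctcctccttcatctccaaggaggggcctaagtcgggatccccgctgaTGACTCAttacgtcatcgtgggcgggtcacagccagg
Fosl2 +23.8 kb: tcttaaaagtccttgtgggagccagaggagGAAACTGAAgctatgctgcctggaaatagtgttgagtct
Fosl2 +27.7 kb: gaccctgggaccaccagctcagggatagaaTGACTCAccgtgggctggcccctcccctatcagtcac
Jun +4.8 kb: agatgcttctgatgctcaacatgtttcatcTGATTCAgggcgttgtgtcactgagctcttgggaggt
Junb -6.8 kb: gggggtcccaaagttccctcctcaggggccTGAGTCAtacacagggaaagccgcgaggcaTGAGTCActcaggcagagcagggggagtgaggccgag
Atf3 -10.6 kb: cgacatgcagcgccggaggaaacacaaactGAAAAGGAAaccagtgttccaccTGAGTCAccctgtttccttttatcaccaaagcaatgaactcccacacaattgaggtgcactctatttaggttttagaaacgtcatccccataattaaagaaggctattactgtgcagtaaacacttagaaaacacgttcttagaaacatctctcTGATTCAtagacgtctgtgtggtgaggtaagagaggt
Atf3 +22.6 kb: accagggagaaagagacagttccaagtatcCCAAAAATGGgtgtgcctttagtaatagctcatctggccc

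A TRE lay in the middle 500 bases of 32 of the 213 peaks (15%), against 18.1% of all 194230 peaks tested. Among the peaks that rose with LPS, 10 of 47 held a TRE and 10 an ISRE-like site. A kappaB site was in 4 of them, a STAT site in 4, a CArG box in 3 and a PU.1-like site in 0. The shares among all tested peaks that rose with LPS were not counted. ISRE-like sites were in 15.5% of the AP-1 gene peaks and 16.3% of all peaks, and PU.1-like sites in 3.76% and 6.54%. The CArG box was in 11 of the 213 (5.16%, against 2.49% of all peaks), kappaB sites in 21 (9.86%, against 5.69%) and STAT sites in 6 (2.82%, against 1.59%). A match is only a run of letters and does not show that a factor was bound.

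LPS opened chromatin at the AP-1 genes more often than it closed it. Of the 213 peaks, 47 rose (22.1%) and 6 fell (2.8%) with LPS against unstimulated cells, where 11.7% of all tested peaks rose and 10.2% fell. The median log2 fold-change was 0.26 over the AP-1 gene peaks and -0.03 over all peaks. In 45 of the 47 the 3 LPS libraries all lay above the 3 unstimulated ones, which a choice by FDR and fold-change favours. Of all 213 peaks, 78 had no overlap, in either direction. The share over all tested peaks was not counted. A mean under 50 normalised counts was found at 7 of the 47. With counts scaled by library totals alone, 19 rose and 13 fell, and with loess offsets 30 rose and 7 fell, while total-count scaling moved the median of all peaks to -0.26. The spread over genes was wide. Atf3 had 10 rising peaks of 21, Batf 9 of 24, Maff 9 of 22 and Junb 6 of 20. At Fosl2, 4 of 32 rose, and at Fosb 5 of 25. Fos had 1 rise and 1 fall among 20 peaks, Fosl1 1 and 2 among 24, Jund 2 and 1 among 18, and at Jun 2 of 7 fell.

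**Figure D1:**
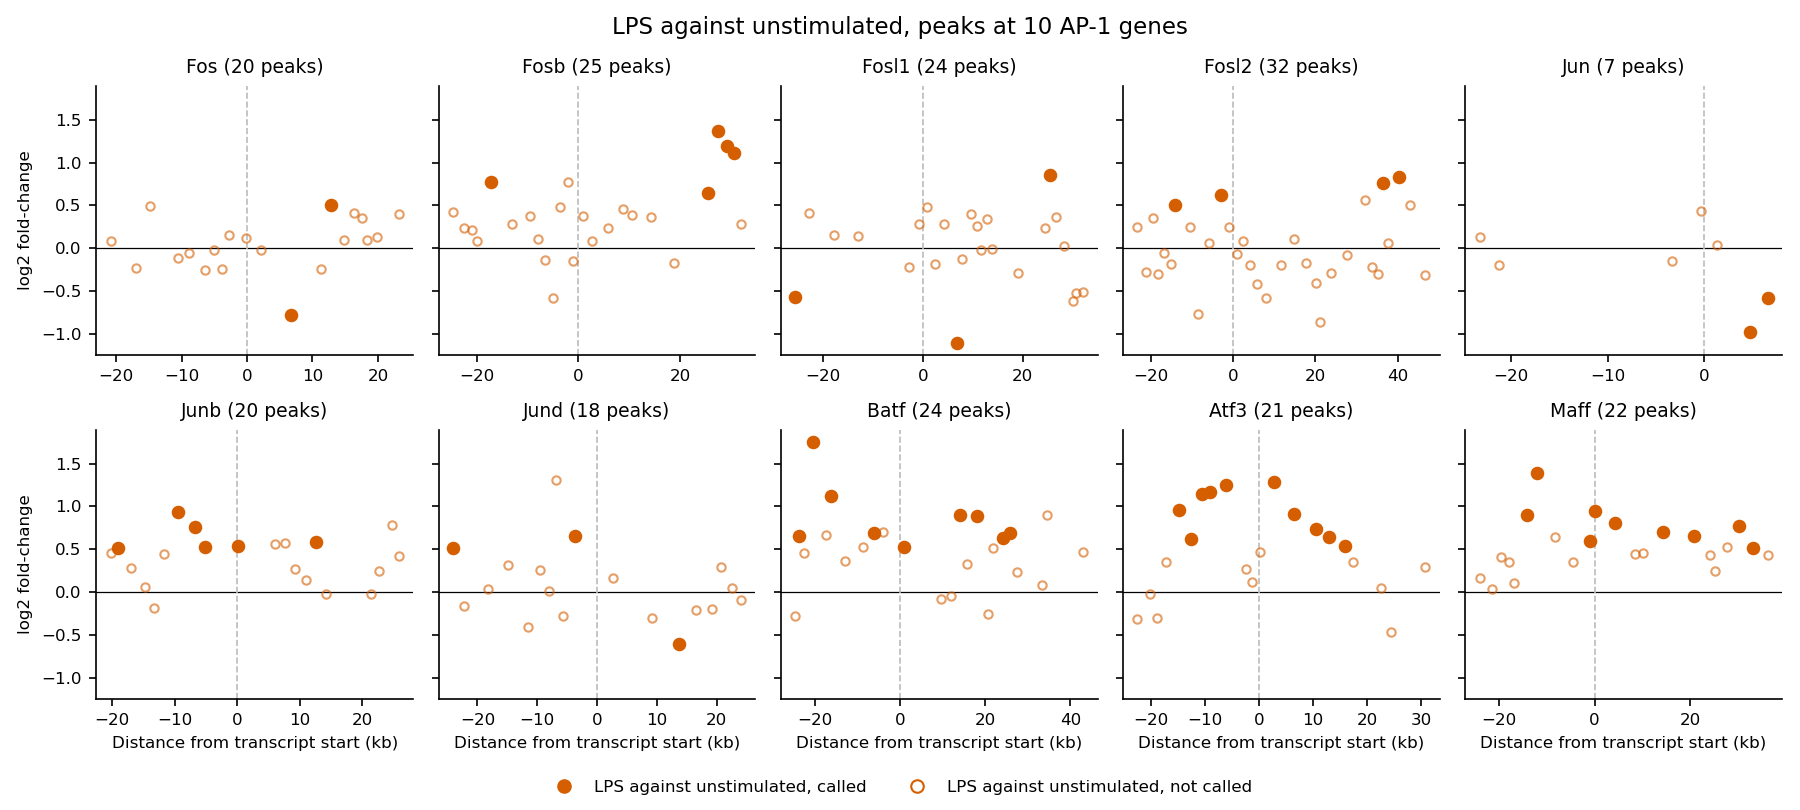
Log2 fold-change of LPS against unstimulated for each of the 213 peaks (y axis) by the distance of the peak centre from the transcript start in kb (x axis), in a panel for each AP-1 gene. Filled points are DARs and open points are not. Rising DARs lie on both sides of the start at Atf3, Batf, Maff and Junb, and the 2 DARs at Jun are both falls.

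Among the Fos family, the Fos start was not a DAR with LPS. Fos is the classical immediate-early gene, induced through serum response factor. The peak over its start (chromosome 12, 86813974 to 86815507) had 597, 674 and 938 normalised counts in the unstimulated libraries and 841, 808 and 763 with LPS. The groups overlapped, and the log2 fold-change was 0.12 ± 0.14 (SE, FDR = 0.545). It turned negative in 5 of 15 alternative fits, to -0.30 (FDR = 0.0014) with loess offsets. Over the 3' end of the gene and the sequence beyond it, the Fos +6.7 kb peak (chromosome 12, 86818103 to 86824994) fell from 350, 523 and 487 to 259, 264 and 273, a log2 change of -0.78 ± 0.14 (FDR = 8.69e-06). All LPS libraries were below all unstimulated ones. The intergenic Fos +12.8 kb peak held 312, 453 and 500 counts before and 659, 614 and 527 with LPS (0.51 ± 0.14, FDR = 0.00355), but was no DAR in 7 of 15 alternative fits.

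Fosl2, which encodes the Fra-2 partner of Jun proteins, did not pass the test at its start either. The peak there (chromosome 5, 32436755 to 32439081) had means of 1239 ± 296 (SD, n = 3) in unstimulated cells and 1474 ± 64.2 with LPS (0.25 ± 0.14, FDR = 0.177), with -0.28 under loess offsets. At Fosl1, the gene of Fra-1, the start peak had a mean of 219 ± 53.1 unstimulated and 307 ± 24 with LPS, and its log2 fold-change of 0.48 ± 0.15 (FDR = 0.00959) was just under the fold threshold. Several rises in the Fosb window lay over neighbouring genes. At the Rtn2 promoter (Fosb +27.5 kb, chromosome 7, 19867211 to 19868485) counts went from 229, 274 and 265 to 681, 676 and 633 (1.37 ± 0.14, FDR = 6.95e-15), and Rtn2 encodes a reticulon of the endoplasmic reticulum. Nearer to Fosb itself, the Fosb -17.2 kb peak, which carries a pair of TREs, held 246, 265 and 317 counts unstimulated and 519, 468 and 435 with LPS. It rose by 0.78 ± 0.14 on the log2 scale (FDR = 4.17e-06), without overlap between the groups, and by 0.48, no longer a DAR, with loess offsets.

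**Figure D2:**
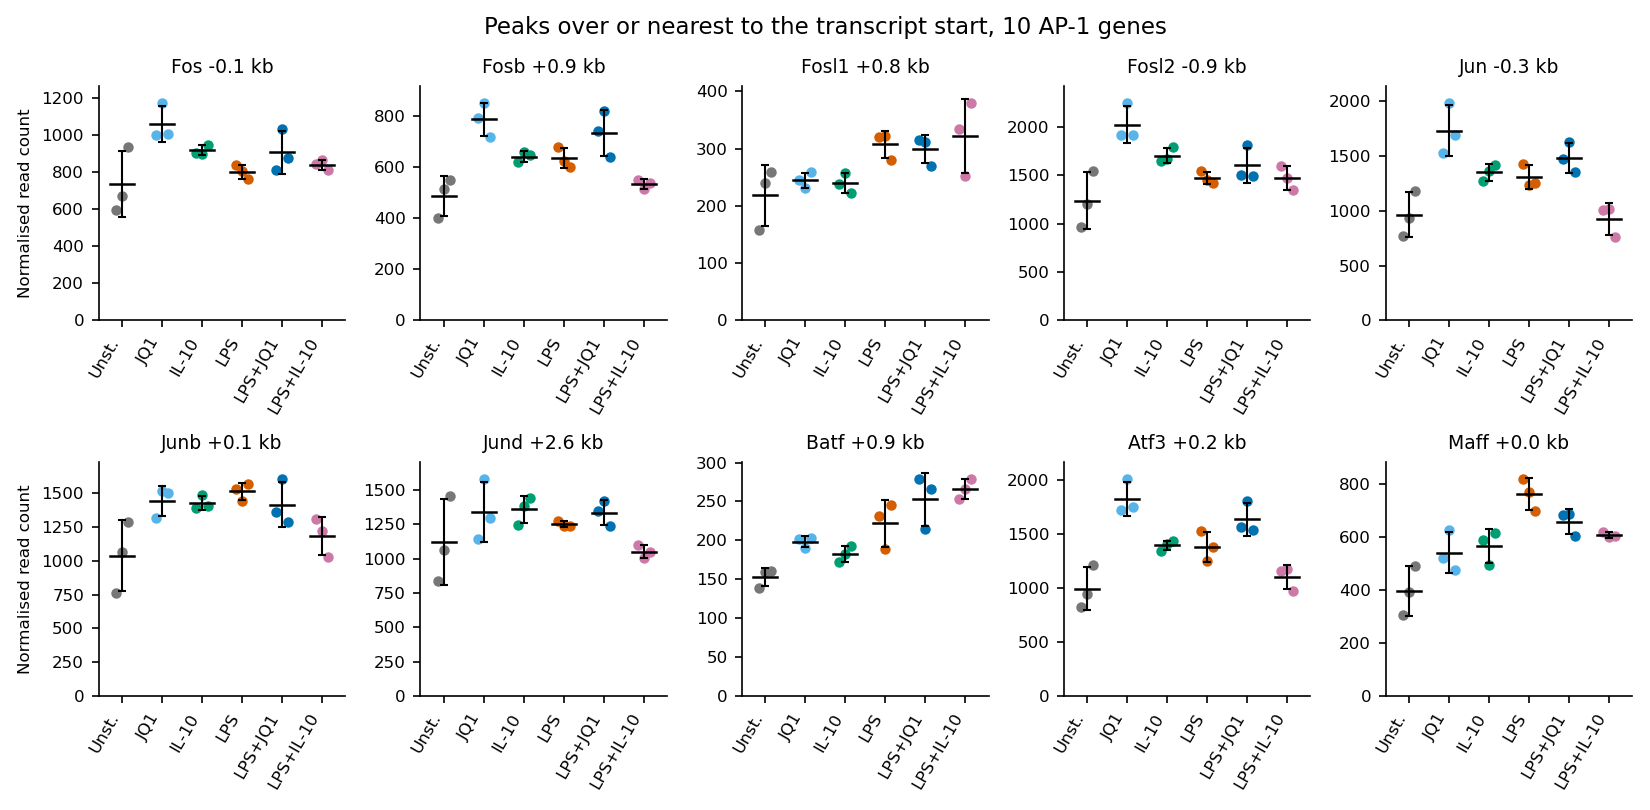
Normalised read count (y axis) of the peak over the transcript start, or of the nearest promoter peak for Fosb and Jund, in each library of the 6 groups (x axis). Points are the 3 libraries of a group, the bar is their mean and the whisker 1 SD. The Maff start is higher in all 3 LPS libraries than in all 3 unstimulated ones, and the first unstimulated point is the lowest of its group in every panel.

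The 3 Jun genes differed from each other with LPS. Jun, the central partner of Fos proteins, lost accessibility downstream of the gene. The Jun +4.8 kb peak (chromosome 4, 94713552 to 94714640) went from 66.6, 114 and 150 counts in unstimulated cells to 40.6, 72.2 and 58.3 with LPS (-0.97 ± 0.21, FDR = 0.000137). The groups overlapped by 1 library, since the first unstimulated library was below the second LPS library. The neighbouring Jun +6.6 kb peak also fell (-0.58 ± 0.17, FDR = 0.0064), a call lost without the second or without the third replicate. Junb, whose product can restrain Jun, rose at its start (chromosome 8, 87501697 to 87503241) from 762, 1065 and 1286 to 1525, 1441 and 1566, a log2 change of 0.54 ± 0.14 (FDR = 0.00164). That rise was no DAR in 6 of 15 alternative fits, among them the fit without the first unstimulated library. Upstream, the Junb -6.8 kb peak with its tandem TREs (87508847 to 87509900) rose from 371, 420 and 561 to 827, 764 and 699 (0.76 ± 0.14, FDR = 7.55e-06). With loess offsets the change was 0.38 and no DAR. The peak lies nearer to the start of Hook2 than to that of Junb. At Jund, which is widely expressed without stimulation, the promoter peak 2.6 kb downstream of the annotated start had means of 1119 ± 313 unstimulated and 1253 ± 21.2 with LPS (0.16 ± 0.14, FDR = 0.425).

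Batf, Atf3 and Maff gained most. Batf pairs with Jun proteins and binds with IRFs at composite sites. The intergenic Batf -20.3 kb peak (chromosome 12, 87006067 to 87008651) had the largest log2 rise of all 213 peaks, 1.75 ± 0.21 (FDR = 4.7e-11), from 67.9, 44.4 and 36 counts to 190, 140 and 163. In the intron, the Batf +18 kb peak had 479, 523 and 652 counts unstimulated and 1139, 974 and 959 with LPS (0.89 ± 0.13, FDR = 6.02e-08). Neither pair of groups overlapped. With loess offsets the change at Batf +18 kb was 0.45 and no DAR, while that at Batf -20.3 kb kept its call in all 15 alternative fits.

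Atf3 encodes a stress-induced bZIP factor that can repress inflammatory genes. Its strongest LPS response was in the first part of the gene. The intronic Atf3 +2.8 kb peak (chromosome 1, 193003388 to 193005527) rose from 217, 253 and 270 to 583, 554 and 674 (1.29 ± 0.14, FDR = 3.04e-13). Upstream, the Atf3 -6.1 kb peak rose by 1.25 ± 0.15 (FDR = 1.88e-11) and the Atf3 -10.6 kb peak by 1.14 ± 0.15 (FDR = 8.38e-10), the latter from 156, 174 and 246 counts to 456, 366 and 459. The Atf3 start peak itself had 826, 942 and 1217 counts unstimulated and 1525, 1246 and 1376 with LPS, and its log2 change of 0.47 ± 0.14 (FDR = 0.00543) stayed under the fold threshold.

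Maff encodes a small Maf protein, which has no activation domain of its own. Of the 3 start peaks that rose with LPS (Junb, Batf and Maff), only that of Maff kept its call in all 15 alternative fits. The peak (chromosome 15, 79177293 to 79178570) went from 304, 391 and 491 counts to 817, 768 and 699, a log2 change of 0.94 ± 0.14 (FDR = 3.67e-08). The intronic Maff +4.3 kb peak rose from a mean of 277 ± 33.2 to 483 ± 35.5 (0.80 ± 0.14, FDR = 1.63e-06).

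**Figure D3:**
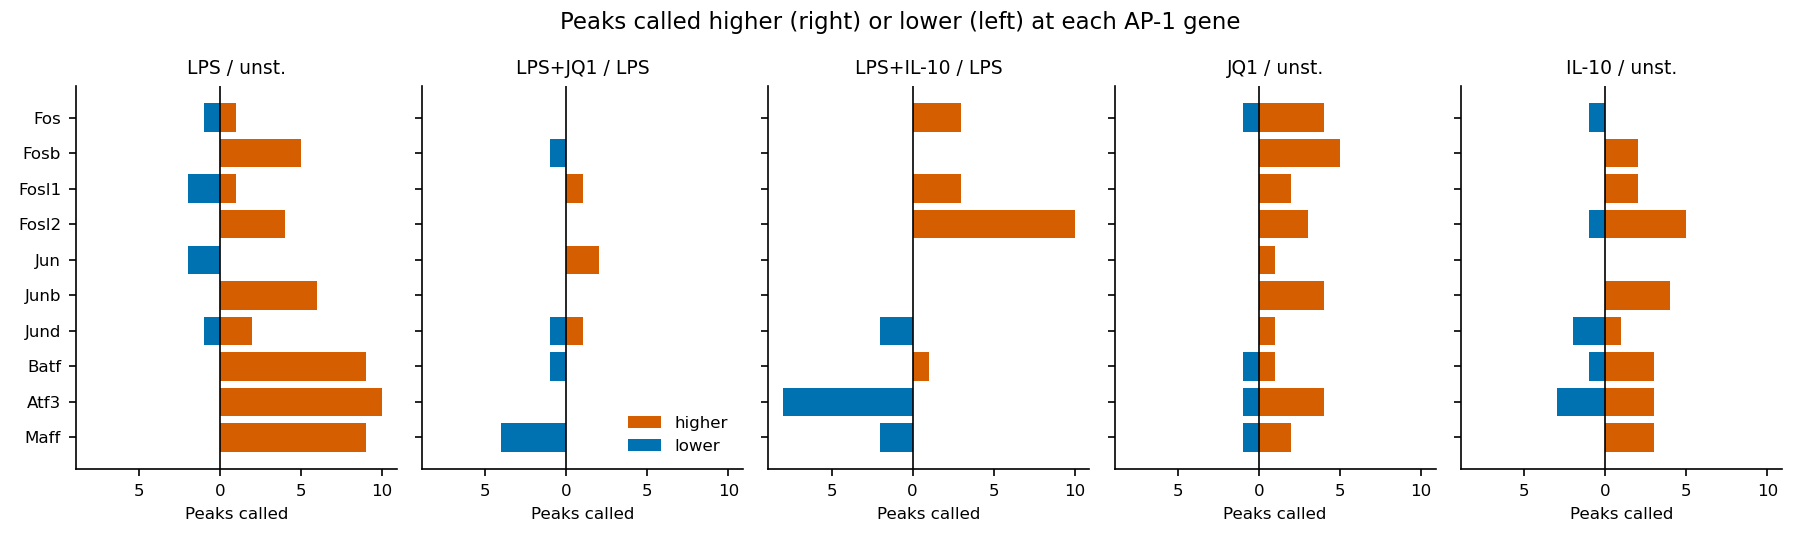
Number of DARs at each AP-1 gene (rows) that were higher (orange, to the right) or lower (blue, to the left) in 5 comparisons (panels), each named as first group / second group, with the axis in peaks. LPS + IL-10 against LPS has 10 higher peaks at Fosl2 and 8 lower at Atf3, and LPS + (+)-JQ1 against LPS has 4 lower at Maff and 2 higher at Jun.

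IL-10 given before LPS moved peaks around different AP-1 genes in opposite directions. Against LPS alone, 17 of the 213 peaks were higher with LPS + IL-10 (8% of the peaks, against 4.26% of all tested peaks) and 12 lower (5.6%, against 4.51%). Of the 17 higher, 10 were at Fosl2, 3 at Fos, 3 at Fosl1 and 1 at Batf. A mean under 50 normalised counts was found at 6 of these 17, 3 at Fosl2 and 1 each at Fos, Fosl1 and Batf. Of the 12 lower, 8 were at Atf3, 2 at Maff and 2 at Jund, and 1 of those at Atf3 had a mean under 50. The nearest start was that of an AP-1 gene for 12 of the 17 higher peaks but only 5 of the 12 lower. Among the 120 peaks nearest to an AP-1 gene start, 10% were higher and 4.2% lower. Among the 93 nearest to a neighbour, 5.4% were higher and 7.5% lower. With counts scaled by library totals 19 were higher and 8 lower. In 16 of the 17 and in all 12 the 2 groups did not overlap, which the choice of DARs favours. Of all 213 peaks, 76 had no overlap, and the share over all tested peaks was not counted. The Fosl2 DARs ran from 14.1 kb upstream to 27.7 kb downstream of the start, with log2 fold-changes of 0.55 to 1.67, and the median over all 32 Fosl2 peaks was 0.62.

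The largest rise with IL-10 was beyond the 3' end of Fosl2. The intergenic Fosl2 +23.8 kb peak (chromosome 5, 32460533 to 32464767) had 105, 142 and 125 counts with LPS and 429, 387 and 362 with LPS + IL-10, a log2 change of 1.67 ± 0.15 (FDR = 3.86e-16) or 3.17-fold. Every LPS + IL-10 library was also above every unstimulated library (177, 130 and 148) and every LPS + (+)-JQ1 library (90.8, 94.3 and 111). IL-10 without LPS gave 290, 260 and 274 counts, higher than unstimulated by 0.86 ± 0.15 (FDR = 2.49e-05). The adjoining Fosl2 +27.7 kb peak, which carries a TRE, rose from 120, 103 and 83 to 309, 220 and 236 (1.31 ± 0.17, FDR = 1.52e-09). There IL-10 alone gave 135, 142 and 124 counts, not a DAR against unstimulated cells (0.30 ± 0.18, FDR = 0.28). At Fosl2 +23.8 kb and Fosl2 +27.7 kb the change with IL-10 in LPS-treated cells was larger than in cells without LPS, with interactions of 0.81 ± 0.21 (FDR = 0.00674) and 1.01 ± 0.24 (FDR = 0.00298). These 2 interactions were no longer DARs without the first or without the second replicate. The Fosl2 start had means of 1474 ± 64.2 with LPS and 1473 ± 126 with LPS + IL-10 (FDR = 0.997). The start of S100a8, the neutrophil marker above, was also more open with LPS + IL-10 (348.7 to 420.5 counts per kb) than with LPS (170.6 to 211.1), while Mpo held 20.65 to 48.12 and Elane 11.86 to 52.93 over all 18 libraries, and the part of other cells in these results was not tested.

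Downstream of Fos the pattern was the same in sign. At the intergenic Fos +16.3 kb peak (chromosome 12, 86830548 to 86831730) LPS gave 163, 154 and 166 counts and LPS + IL-10 gave 360, 282 and 373 (1.07 ± 0.15, FDR = 1.06e-08). Fos +6.7 kb, which had fallen with LPS, stood at 423, 457 and 356 with LPS + IL-10 against 259, 264 and 273 with LPS (0.63 ± 0.14, FDR = 0.000884), a call lost without the second replicate. At the Fos start the 2 groups differed by 0.06 ± 0.14 (FDR = 0.838).

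Atf3 moved the other way. All 8 of its DARs were lower with LPS + IL-10 than with LPS, all lay downstream of the start, between 2.8 and 24.4 kb, and 10 of the 21 peaks at Atf3 lie on that side. Their log2 fold-changes were -1.37 to -0.72. The lowest was at Atf3 +22.6 kb (chromosome 1, 192983253 to 192985983), an intergenic peak nearer to the start of Fam71a, where LPS gave 250, 197 and 255 counts and LPS + IL-10 gave 104, 81.6 and 85.4 (-1.37 ± 0.17, FDR = 9.21e-10). IL-10 without LPS gave 79.4, 90.4 and 110 there, below the unstimulated 151, 205 and 318 (-1.27 ± 0.17, FDR = 4.25e-08), and the interaction was -0.09 ± 0.24 (FDR = 0.877). LPS alone changed this peak by 0.05 ± 0.16 (FDR = 0.865). At the intronic Atf3 +2.8 kb peak, by contrast, IL-10 lowered the LPS level from 583, 554 and 674 to 399, 357 and 343 (-0.72 ± 0.13, FDR = 3.5e-05) while the level without LPS was 306, 248 and 263 with IL-10 and 217, 253 and 270 without it (0.14 ± 0.14, FDR = 0.592), and here the interaction was a DAR (-0.86 ± 0.20, FDR = 0.00163). It was -0.48 and no DAR with loess offsets, and no DAR without the second replicate. Of the peaks over the Atf3 gene body, Atf3 +6.5 kb went from 445, 420 and 453 to 282, 244 and 218 (-0.83 ± 0.14, FDR = 2.51e-06). Upstream, Atf3 -6.1 kb had means of 367 ± 32.9 with LPS and 311 ± 46 with LPS + IL-10 (-0.24 ± 0.14, FDR = 0.308).

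**Figure D4:**
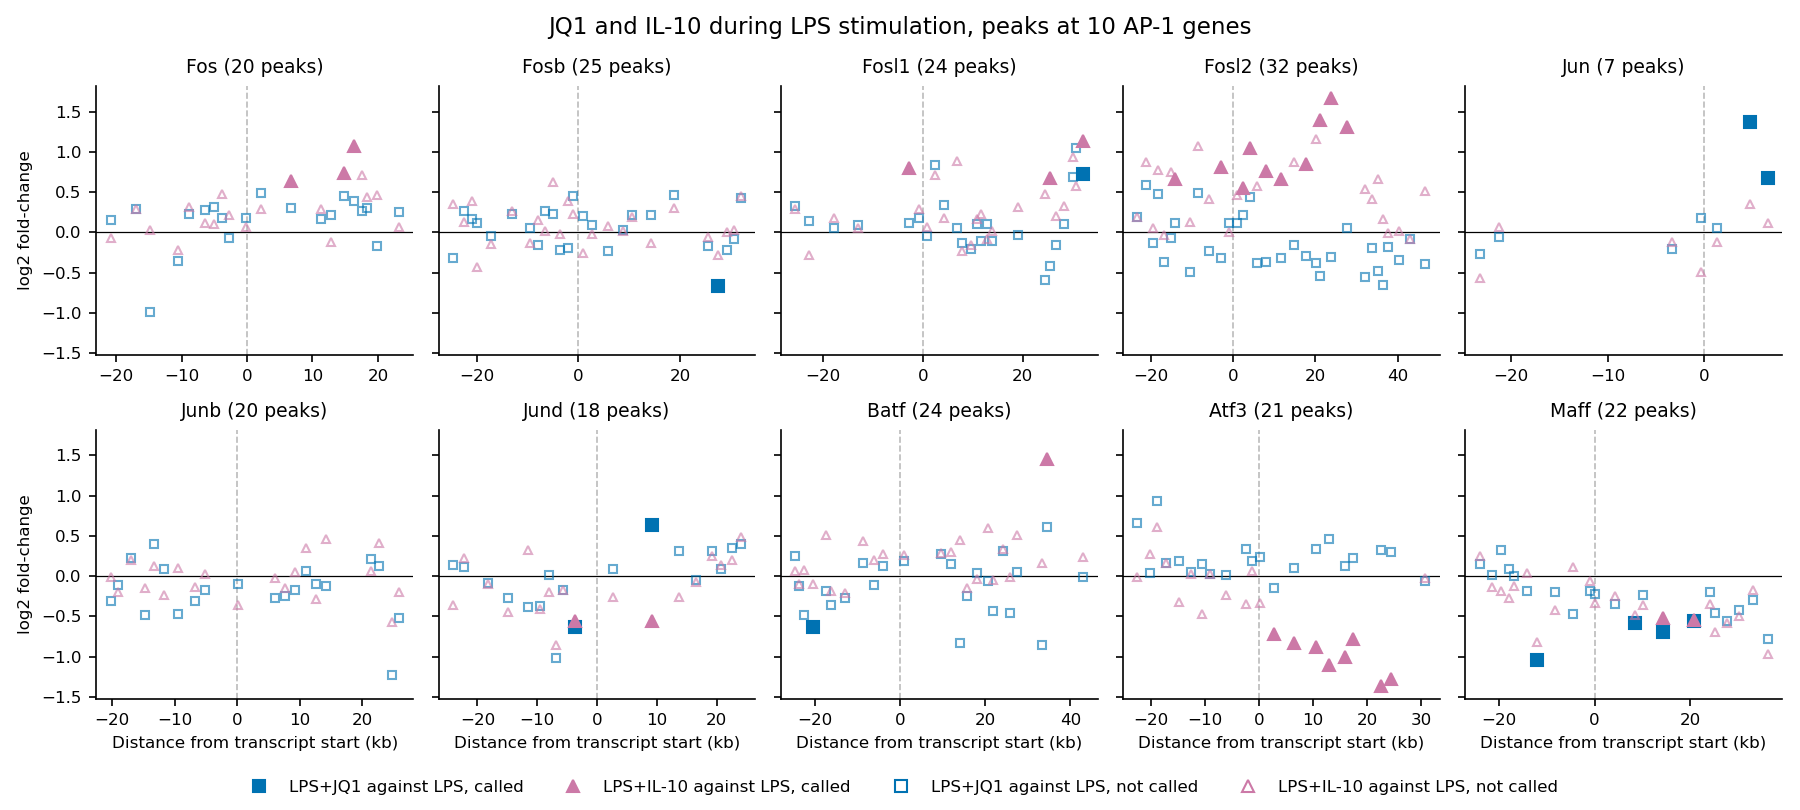
Log2 fold-change against LPS alone (y axis) of LPS + (+)-JQ1 (squares) and LPS + IL-10 (triangles) for each of the 213 peaks, by distance of the peak centre from the transcript start in kb (x axis). Filled symbols are DARs. With IL-10 the DARs of Fosl2 are all above 0 and those of Atf3 all below 0 and downstream of the start.

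(+)-JQ1 given before LPS changed fewer peaks at the AP-1 genes. Against LPS alone, 4 of 213 were higher (1.9%, against 1.74% of all tested peaks) and 7 lower (3.3%, against 3.49%), both shares near those of all peaks. Maff held 4 of the 7 lower peaks, and Batf, Fosb and Jund 1 each. At Maff, 1 of the 4 had a mean under 50 normalised counts. Of the 4 higher, 2 were at Jun, 1 at Fosl1 and 1 at Jund. The median log2 fold-change was 0.02 over the 213 peaks.

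Jun showed the largest rise with (+)-JQ1. At the Jun +4.8 kb peak, LPS gave 40.6, 72.2 and 58.3 counts and LPS + (+)-JQ1 gave 127, 150 and 162, a log2 change of 1.38 ± 0.20 (FDR = 1.63e-07) or 2.6-fold. The groups did not overlap, and the LPS + (+)-JQ1 libraries overlapped the unstimulated ones (66.6, 114 and 150). (+)-JQ1 without LPS gave 159, 129 and 151 counts (0.40 ± 0.19 against unstimulated, FDR = 0.174), and the interaction of LPS with (+)-JQ1 was 0.98 ± 0.28 (FDR = 0.0271). That interaction was lost in 3 of 15 alternative fits, without the second replicate, without the third and with promoter and distal peaks scaled separately, and ranged from 0.64 to 1.23. The Jun +6.6 kb peak followed, with 99.3, 126 and 104 counts under LPS and 179, 196 and 153 under LPS + (+)-JQ1 (0.67 ± 0.17, FDR = 0.00479), a call lost without the second replicate. LPS + IL-10 left Jun +4.8 kb at 68.7, 89.2 and 61.3, and its difference from LPS did not pass the test (0.35 ± 0.21, FDR = 0.33).

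Maff lost accessibility at 4 peaks with (+)-JQ1, the clearest spanning its 3' end. At Maff +14.4 kb (chromosome 15, 79189246 to 79195526) unstimulated cells had 243, 220 and 190 counts, LPS 392, 347 and 319 and LPS + (+)-JQ1 193, 213 and 245 (-0.69 ± 0.14 against LPS, FDR = 0.000312). The LPS + (+)-JQ1 libraries overlapped the unstimulated ones and lay below every LPS library. LPS + IL-10 was lower than LPS there too, at 222, 241 and 278 (-0.51 ± 0.14, FDR = 0.0073), though that call was lost in 4 of 15 alternative fits. The next peak, Maff +20.7 kb, over an exon of Tmem184b, had 313, 277 and 340 counts with LPS, 163, 228 and 232 with (+)-JQ1 added (-0.56 ± 0.14, FDR = 0.00636) and 215, 205 and 218 with IL-10 added (-0.54 ± 0.14, FDR = 0.0057). The first call was lost without the first replicate or the first LPS + (+)-JQ1 library alone, and the second in 4 of 15 alternative fits, among them those without the second or the third replicate. At the Maff start, where LPS gave 817, 768 and 699, neither (+)-JQ1 (-0.22 ± 0.14, FDR = 0.435) nor IL-10 (-0.33 ± 0.14, FDR = 0.115) gave a DAR.

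At the Rtn2 promoter in the Fosb window, (+)-JQ1 lowered the LPS counts from 681, 676 and 633 to 446, 402 and 409 (-0.67 ± 0.13, FDR = 0.00017), still above the unstimulated 229, 274 and 265. That call was lost without the second replicate. The Batf -20.3 kb peak had 190, 140 and 163 counts with LPS and 159, 93.3 and 75.8 with LPS + (+)-JQ1 (-0.64 ± 0.19, FDR = 0.0301). The groups overlapped, the first LPS + (+)-JQ1 library being close to the LPS level, and the log2 change ran from -0.41 to -0.97 over the alternative fits, the latter without that library. The call was lost in 3 of 15, with DESeq2, without the second replicate and without the third (FDR up to 0.433). At Jund the 2 DARs had opposite signs, with Jund +9.2 kb higher (0.64 ± 0.14, FDR = 0.00135) and Jund -3.7 kb lower (-0.63 ± 0.18, FDR = 0.015). Both calls were lost without the second replicate, and the latter also with DESeq2.

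**Figure D5:**
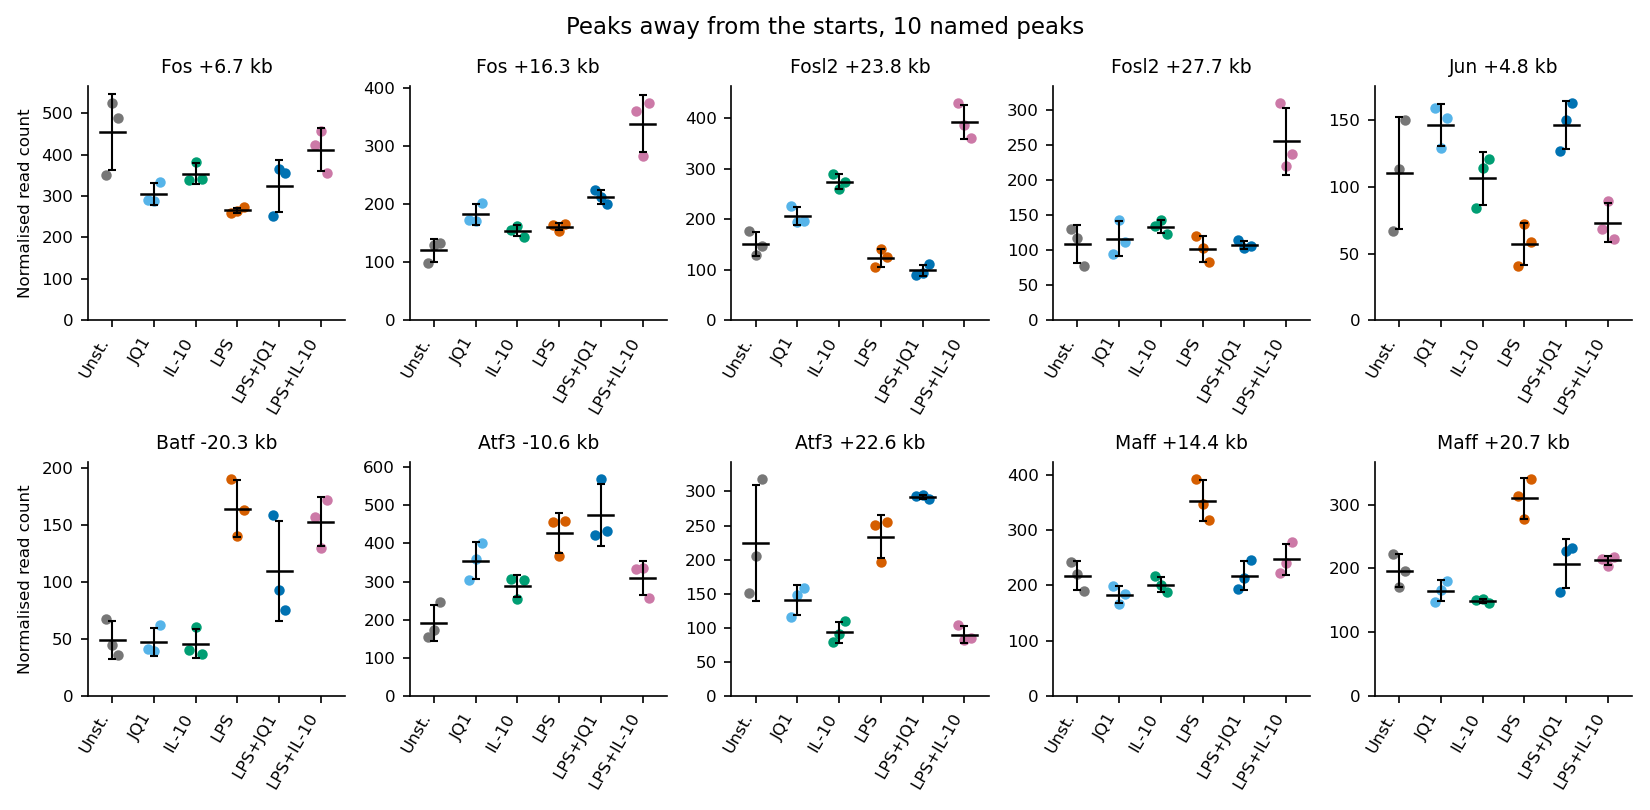
Normalised read count (y axis) of 10 named peaks away from the transcript starts, in each library of the 6 groups (x axis). Points are the 3 libraries of a group, the bar is their mean and the whisker 1 SD. The LPS + IL-10 points stand above all others at Fosl2 +23.8 kb, Fosl2 +27.7 kb and Fos +16.3 kb, and the LPS points above all others at Maff +14.4 kb and Maff +20.7 kb.

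Without LPS, most DARs against unstimulated cells were rises, with either treatment. (+)-JQ1 alone raised 27 of the 213 peaks (12.7%, against 7.85% of all tested peaks) and lowered 4 (1.9%, against 3.15%). IL-10 alone raised 23 (10.8%, against 5.16%) and lowered 8 (3.8%, against 3.5%). With (+)-JQ1, 14 of the 58 promoter peaks rose (24.1%), near the 22.9% of all promoter peaks. These directions depended on the scaling: by library totals (+)-JQ1 raised 6 and lowered 23 of the peaks and IL-10 raised 4 and lowered 18, and with loess offsets (+)-JQ1 raised 2 and lowered 6 and IL-10 raised 5 and lowered 12. Under scaling by totals the median over all peaks was -0.37 with (+)-JQ1 and -0.26 with IL-10, against -0.09 and -0.05 under TMM. Without the first unstimulated library, 20 peaks passed with (+)-JQ1 and 15 with IL-10, in place of 31 and 31.

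Among the start peaks, Atf3 had 826, 942 and 1217 counts at its start in unstimulated cells and 1716, 2006 and 1748 with (+)-JQ1 (0.87 ± 0.14, FDR = 8.71e-07), and Jun had 773, 935 and 1178 and then 1521, 1976 and 1684 (0.84 ± 0.14, FDR = 2.44e-06). With loess offsets the same changes were 0.05 and 0.04. The Pla2g6 promoter, 19.5 kb upstream of Maff, rose with (+)-JQ1 by 0.97 ± 0.14 (FDR = 2.37e-07), and by 0.36, no longer a DAR, with loess offsets. With IL-10 alone, the Batf +24.1 kb peak rose from 168, 202 and 209 to 388, 300 and 409 (0.92 ± 0.15, FDR = 5.05e-06) and kept its call in all 15 alternative fits, and so did Fosl2 -3.0 kb, which rose from 75.4, 97 and 90.6 to 174, 174 and 196 (1.04 ± 0.17, FDR = 6.01e-06). The largest IL-10 fall among the named peaks was at Atf3 +22.6 kb, given above.

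The effect of a treatment with LPS was set against its effect without LPS by the interaction. LPS by (+)-JQ1 interactions were positive at 3 peaks (1.4%, against 0.649% of all tested peaks) and negative at 14 (6.6%, against 3.19%). LPS by IL-10 interactions were positive at 5 (2.3%, against 2.01%) and negative at 23 (10.8%, against 5.9%). Of the negative ones, 9 and 12 were at promoter peaks, where 11.2% and 16.9% of all promoter peaks were negative. A negative interaction means that the treatment raised the peak less, or lowered it more, with LPS than without it. At the Jun start, for example, IL-10 took 773, 935 and 1178 counts to 1267, 1365 and 1417 without LPS, and 1428, 1231 and 1254 to 1010, 1011 and 759 with LPS (-0.98 ± 0.20, FDR = 0.000313). With loess offsets this interaction was -0.20, and it was no DAR then or without the second replicate. All 5 positive interactions with IL-10 were at peaks whose nearest start is that of an AP-1 gene, as were 13 of the 23 negative ones. Among all 213 peaks, 120 have such a nearest start. Of the 5, 1 had a mean under 50 normalised counts, and without the second replicate 0 interactions with IL-10 were positive. The split turned with the scaling: by library totals 7 were positive and 4 negative with (+)-JQ1 and 15 and 11 with IL-10, and with loess offsets 7 and 2, and 7 and 3. The median of all peaks was then 0.29 and 0.31 by library totals, against 0.02 and 0.04. Without the second replicate, 2 peaks had an LPS by IL-10 interaction in the edgeR fit and 0 an LPS by (+)-JQ1 interaction (32 with an unadjusted p under 0.05).

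The related genes gave a scale for these counts. Around 20 other bZIP genes, 73 of 475 peaks rose with LPS (15.4%) and 29 fell, with a median of 0.14. Around 17 genes of the upstream kinases and their nuclear targets Srf and Elk, 35 of 391 rose and 35 fell (9% each, median 0.01). Around 10 NF-kappaB genes 113 of 243 rose (46.5%, median 0.58), and around the 9 IRF genes 55 of 190 rose (28.9%, median 0.31). With LPS + IL-10 against LPS, 68 NF-kappaB (28%) and 27 IRF gene peaks (14.2%) were lower and 11 and 2 higher. With LPS + (+)-JQ1 against LPS, 25 IRF peaks (13.2%), 10 NF-kappaB peaks (4.1%) and 28 other bZIP peaks (5.9%) were lower, against 3.49% of all tested peaks. Of the higher peaks, 18 were at other bZIP genes (3.8%, against 1.74%) and 1 at an IRF gene. These counts were not tested against each other.

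Single genes among the other bZIP genes, picked after their values were seen, stood out in number. Jdp2, which encodes a repressor of AP-1 and lies between Fos and Batf on chromosome 12 and shares 3 peaks with the Batf window, had 15 of 37 peaks higher with LPS and 13 lower with LPS + IL-10 than with LPS. Creb5 had 14 of 58 higher with LPS and 14 lower with LPS + (+)-JQ1 than with LPS. At Cebpb, 5 of 15 peaks were higher with LPS and 5 were higher with LPS + IL-10 than with LPS.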

How the data were processed

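ATAC-seq libraries of 6 groups of 3 were used, as the labels assign them. Per the labels and the study's methods, the authors ran PEPATAC with default settings, aligned read pairs to mm9 with Bowtie2, called MACS2 peaks per library, merged them, classed each with ChIPseeker as promoter (1000 bp upstream to 100 bp downstream of a start) or distal, and deposited raw counts per peak, neither normalised nor pooled. The counting tool is not given in the sources used here. The peak tables held 6 further columns that match no sample here and were not used.

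Counts of all 194284 peaks were fitted with edgeR 4.0.16 in R 4.3.3 (filterByExpr by group, TMM scaling, quasi-likelihood test, 1 fit of 6 groups, Benjamini-Hochberg adjustment over 194230 peaks). Every FDR in the text is that of edgeR's quasi-likelihood test unless another fit is named. Log2 fold-changes carry their standard errors. Normalised counts are counts over the effective library size, times its mean over the libraries. The smallest p an exact permutation test of 3 against 3 libraries could give is 0.1, so none was used. The labels number the libraries of each group but do not tie a number to a mouse. The third libraries ran on lane 6 and the first on lane 5, while the second were split, lane 6 taking those that got LPS and lane 5 the rest.

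Peaks were named by rule: the highest peak over each start, up to 3 DARs per gene with the smallest FDR for LPS, up to 8 for each treatment against LPS, and up to 5 for each treatment alone and each interaction, where each had a mean of 50 normalised counts or more and moved 1 way in all 3 pairs of libraries with the same number. The nearest promoter peaks of Fosb and Jund, and single genes of other lists, were named after their values were seen. Members and lists were chosen with earlier results of these data known. Alternatives were DESeq2 1.42.0, other scalings (RLE, library totals, loess with span 0.3), filters, designs, thresholds and left-out replicates, and, chosen after seeing the data, leaving out the first unstimulated or first LPS + (+)-JQ1 library, scaling promoter and distal peaks separately, and the STAT motif. The code was tested on simulated data.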

Additional observations from a re-analysis of the deposited data

Results flagged for a closer look

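The 10 results here were picked because the effect of a treatment differed with and without LPS, by the interaction term of the edgeR fit. For LPS by (+)-JQ1, the interaction was -1.23 on the log2 scale at Junb +25.9 kb, over the gene Rtbdn, 1.00 at Atf3 +22.6 kb, 0.88 at Fos +6.7 kb, -0.82 at Fosl1 -22.8 kb and -0.80 at Junb +12.7 kb, the Rnaseh2a promoter. At Atf3 +22.6 kb (+)-JQ1 lowered the count without LPS from 151, 205 and 318 to 117, 149 and 158, while with LPS the 3 counts were 250, 197 and 255 without and 293, 295 and 289 with (+)-JQ1. The 2 groups without LPS overlapped, and the fall with (+)-JQ1 alone was no DAR without the third replicate. For LPS by IL-10, the interaction was -1.04 at Maff +10.1 kb, -1.04 at Atf3 -10.6 kb, -0.98 at Jun -0.3 kb, -0.93 at Junb +12.7 kb and 0.99 at Fos +6.7 kb. At Maff +10.1 kb IL-10 raised the count from 344, 511 and 563 to 778, 712 and 790 without LPS, and with LPS the counts were 725, 641 and 583 without and 523, 519 and 479 with IL-10. The first unstimulated library was the lowest of its group at both peaks whose counts are given here, and all 10 interactions kept direction and call in the fit without it. Without the second replicate, only those of LPS by IL-10 at Maff +10.1 kb and Atf3 -10.6 kb remained DARs. With loess offsets, the calls at Fosl1 -22.8 kb and Jun -0.3 kb and both calls at Junb +12.7 kb were lost. Leaving out the first replicate of every group lost the LPS by (+)-JQ1 calls at Junb +25.9 kb, Fosl1 -22.8 kb and Junb +12.7 kb.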

How the results depend on the processing

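Of 25 named changes against LPS alone, 12 kept direction and call in all 15 alternative fits, with log2 ranges of 1.49 to 1.79 at Fosl2 +23.8 kb, -1.42 to -1.26 at Atf3 +22.6 kb and 1.25 to 1.58 at Jun +4.8 kb. Over all comparisons 32 of 137 named values did. The cause was not tested for any change below. With library totals, 19 peaks rose and 13 fell with LPS and 11 had an LPS by (+)-JQ1 interaction. With loess offsets, 30 rose with LPS, 8 were called with (+)-JQ1 alone, 17 with IL-10 alone, 9 with an LPS by (+)-JQ1 and 10 with an LPS by IL-10 interaction. DESeq2 called 30 LPS by (+)-JQ1 interactions, the fit of the compared groups alone 8, and the fits without the first unstimulated or the first LPS + (+)-JQ1 library 9 each. Without the first unstimulated library 20 peaks were called with (+)-JQ1 alone and 15 with IL-10 alone. At an FDR under 0.01, 3 peaks were lower with (+)-JQ1 and 10 higher with IL-10 than with LPS, and 4 had an LPS by (+)-JQ1 interaction. Leaving out each replicate gave 30 to 59 peaks higher and 3 to 4 lower with LPS, 2 to 5 higher and 2 to 6 lower with (+)-JQ1 than with LPS, 10 to 13 higher and 8 to 11 lower with IL-10 than with LPS, 8 to 40 with (+)-JQ1 alone, 7 to 41 with IL-10 alone, 0 to 25 LPS by (+)-JQ1 interactions in edgeR (32 peaks with an unadjusted p under 0.05 at the lowest, and 30 calls by DESeq2 on all libraries) and 2 to 31 LPS by IL-10 interactions. The lowest of these came without replicate 2, equalled without replicate 1 for higher peaks with LPS, except for lower peaks with LPS (without replicate 1) and higher peaks with IL-10 (without replicate 3).

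Libraries with the same number did not deviate together: the mean correlation of their deviations from the group means was 0.0054 over 45 pairs, against -0.0027 over 90 pairs with different numbers. The replicate block gave 13 LPS by (+)-JQ1 interactions in place of 17 and, for the other comparisons, the same numbers of calls: 47 and 6 with LPS, 4 and 7 with (+)-JQ1 and 17 and 12 with IL-10 against LPS, 31 and 31 alone, and 28 LPS by IL-10 interactions.

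Directions turned at some peaks, at several starts and also at Batf +18 kb and Maff +10.1 kb. With loess offsets the log2 change with LPS was -0.037 at Atf3 +0.2 kb, -0.30 at Fos -0.1 kb, -0.28 at Fosl2 -0.9 kb and -0.057 at Jun -0.3 kb. With (+)-JQ1 alone it was -0.10 at Batf +18 kb, -0.15 at Fos -0.1 kb, -0.15 at Fosl2 -0.9 kb and -0.021 at Maff +10.1 kb. The LPS by (+)-JQ1 interaction was 0.090 at Atf3 +0.2 kb and 0.038 at Jun -0.3 kb, and the LPS by IL-10 interaction 0.0009 at Batf +18 kb. At Fos -0.1 kb LPS gave -0.093 with library totals, -0.027 to 0.37 with each replicate left out, -0.0031 without the first unstimulated library and -0.034 with promoter and distal peaks scaled separately. With 3 libraries a group, log2 standard errors were about 0.14 at open peaks. For LPS against unstimulated they were 0.21 at Bach2 +292.6 kb (mean of 97 counts) and 0.25 at Crem -18.0 kb (53.2) and Nfe2l1 -2.8 kb (57.9).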
